A study of Homo sapiens with 3 samples.

Results

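The genes described here are 10 components of the circadian clock, BHLHE40, BHLHE41, CLOCK, BMAL1, PER1, PER2, PER3, CRY1, CRY2 and NR1D1, out of 18417 genes that the arrays named by a single symbol. They were chosen by name, with the clear difference of BHLHE40 between the graphene oxide array and the control already known. The values of BHLHE40 in that contrast are therefore a description and support nothing by themselves. The contrast of graphene oxide with reduced graphene oxide shares the graphene oxide array, so the same holds there. Total RNA of HepG2, a long-established line from a human liver tumour, was read on 3 Affymetrix arrays. The control array came from cells with no treatment. The GO array came from cells kept for 24 h with graphene oxide, an oxidised carbon sheet, and the rGO array from cells kept for 24 h with reduced graphene oxide, which carries fewer oxygen groups. Each material was used at a separate EC20 (a 20% effect in viability assays), and the concentrations are not given in the labels, so the 2 doses may differ. Each group held 1 array, so no value has an error between replicates and no test exists; the number of arrays limits the precision, and each difference compares 2 single arrays. The labels name 1 exposure time, 24 h for GO and rGO, and no time for the control. They name no step that sets the cells' clocks to a common phase, so the phase of the clock in each dish is not known. In bulk RNA of this kind, fewer cells with a transcript and less of it in each cell cannot be told apart.

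In the clock, the proteins CLOCK and BMAL1 pair on DNA elements called E-boxes and switch on the PER and CRY genes, whose products return to the nucleus and shut the pair down. A second loop runs through NR1D1, the nuclear receptor REV-ERB alpha, which represses BMAL1 against the activating ROR receptors. BHLHE40 and BHLHE41, also called DEC1 and DEC2, are basic helix-loop-helix repressors that compete for E-boxes, and BHLHE40 is also a target of the hypoxia-inducible factors. In liver the clock times the genes of glucose, lipid and bile acid metabolism.

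BHLHE40 was far higher after GO, and the other clock genes differed little from the control in either exposure. BHLHE40 was 2.88-fold higher in the GO array than in the control and 1.17-fold higher in the rGO array. The next largest difference after GO was that of NR1D1, 1.22-fold higher, and CRY1 lay lowest, 1.13-fold lower. PER2 had the next largest difference after rGO, 1.12-fold higher. CLOCK and BMAL1, the activating pair, stood within 1.04-fold of the control after GO and 1.02-fold after rGO.

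RefSeq start windows were matched by symbol for all 10 genes, 14 windows in all on GRCh38.p14, each from 250 bases before to 50 bases after an annotated gene start. They are shown because the E-box is the element that the clock's activators and the DEC repressors share. The letters searched, on both strands, were the E-box CACGTG, the core ACGTG of the element that hypoxia-inducible factors bind, which any E-box of these letters also holds, the D-box TTATGTAA of the PAR bZIP factors, the core AGGTCA of the ROR element and the cyclic AMP element TGACGTCA. An E-box lay in 3 of the 14 windows, those of BHLHE40, BHLHE41 and PER1, against 7.26% of all 35116 windows. The 4 stretches below lie upstream of the start, with matches to the E-box and to ACGTG in capitals. That of BHLHE40 is the plus strand at chr3:4979187-4979436. Those of BHLHE41 at chr12:26125050-26125115, of PER1 at chr17:8152542-8152607 and of NR1D1 at chr17:40100722-40100786 are on the minus strand.
BHLHE40: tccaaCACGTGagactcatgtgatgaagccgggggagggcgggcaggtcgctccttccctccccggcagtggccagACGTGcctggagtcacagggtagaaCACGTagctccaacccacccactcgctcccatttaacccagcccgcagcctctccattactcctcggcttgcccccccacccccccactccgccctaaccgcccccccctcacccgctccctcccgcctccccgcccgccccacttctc
BHLHE41: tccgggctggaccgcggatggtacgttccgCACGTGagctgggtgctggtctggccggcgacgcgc
PER1: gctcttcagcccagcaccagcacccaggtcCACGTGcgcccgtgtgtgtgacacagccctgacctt
NR1D1: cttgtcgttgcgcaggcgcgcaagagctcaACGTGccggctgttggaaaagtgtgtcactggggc
In BHLHE40 the E-box began at position -245 from the start, and separate ACGTG cores lay at -174 and, on the other strand, at -149. The E-box of BHLHE41 began at -48 and that of PER1 at -173. NR1D1 had no E-box of these letters and an ACGTG core at -167. A core ACGTG lay in 9 of the 14 windows, of 8 genes, against 21.4% of all windows, and the 3 E-boxes account for some of these matches. The ROR core lay in 4 windows, of BMAL1, PER1 and CRY2, against 13.8% of all, the D-box in 1 window, of PER3, against 0.886%, and the cyclic AMP element in 0, against 1.85%. Windows of one gene can overlap, matches are descriptions of letters only, and binding was not measured. For the genes with an E-box, the log2 differences from control after GO were 1.53 for BHLHE40, 0.10 for PER1 and 0.047 for BHLHE41. BHLHE41 had low values in all 3 arrays, where background can mask signal. Any link between the matches and these differences was not tested.

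**Figure D1:**
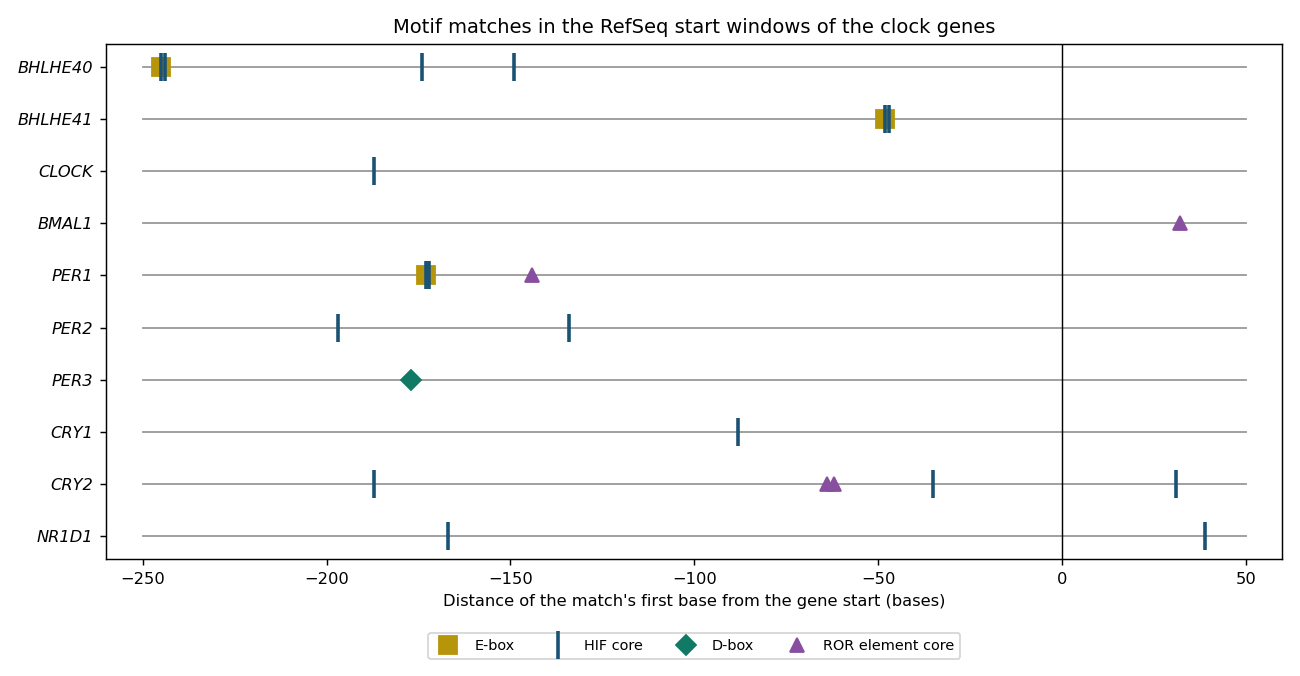
Positions of motif matches from 250 bases before to 50 bases after the RefSeq starts of the 10 genes; symbols mark the first base of each match, and the windows of a gene with 2 starts are drawn on 1 line. E-boxes (squares) appear in BHLHE40 at -245, PER1 at -173 and BHLHE41 at -48.

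Each of the 10 genes was read by exactly 1 probe set with a single gene symbol, so no second probe set could be set beside any of them. Values are log2 expression values, and because probe sets differ in brightness, levels were compared between arrays and not between genes. A gene passed the level filter when its mean over the 3 arrays reached log2 6.66, the 40th percentile of genes, which 11050 genes did. Of the 10 clock genes 9 passed, and BHLHE41 did not. The 9 were above that level in each of the 3 arrays. The spread of differences over all genes past the filter, taken as a robust SD (the scaled median absolute deviation), was 0.24 for GO minus control. It was 0.12 for rGO minus control and 0.22 between the exposed arrays. It mixes variation between dishes and arrays with any effect of the material.

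The repressor BHLHE40 (probe set 8077441) had a log2 value of 8.26 without treatment, 9.79 with GO and 8.48 with rGO. The GO array stood apart from the other two, which lay closer together. The log2 difference from control was 1.53 with GO and 0.22 with rGO, and the exposed arrays lay 1.30 apart. The first of these was the second highest of all 11050 genes and 6.25 times the robust SD of all genes. Against rGO, BHLHE40 ranked 11 from the top among the same genes. After rGO its rank was 301, with 97.3% of genes lower, and its difference was 1.93 times that comparison's narrower robust SD. Its relative BHLHE41 (probe set 7961891), the other DEC repressor, stood at 6.51 without treatment, 6.56 with GO and 6.43 with rGO. None of the 3 values reached the filter level, and at such low values background can mask signal. They spanned 0.13 log2. The log2 differences of BHLHE41 from control were 0.047 after GO and -0.083 after rGO.

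**Figure D2:**
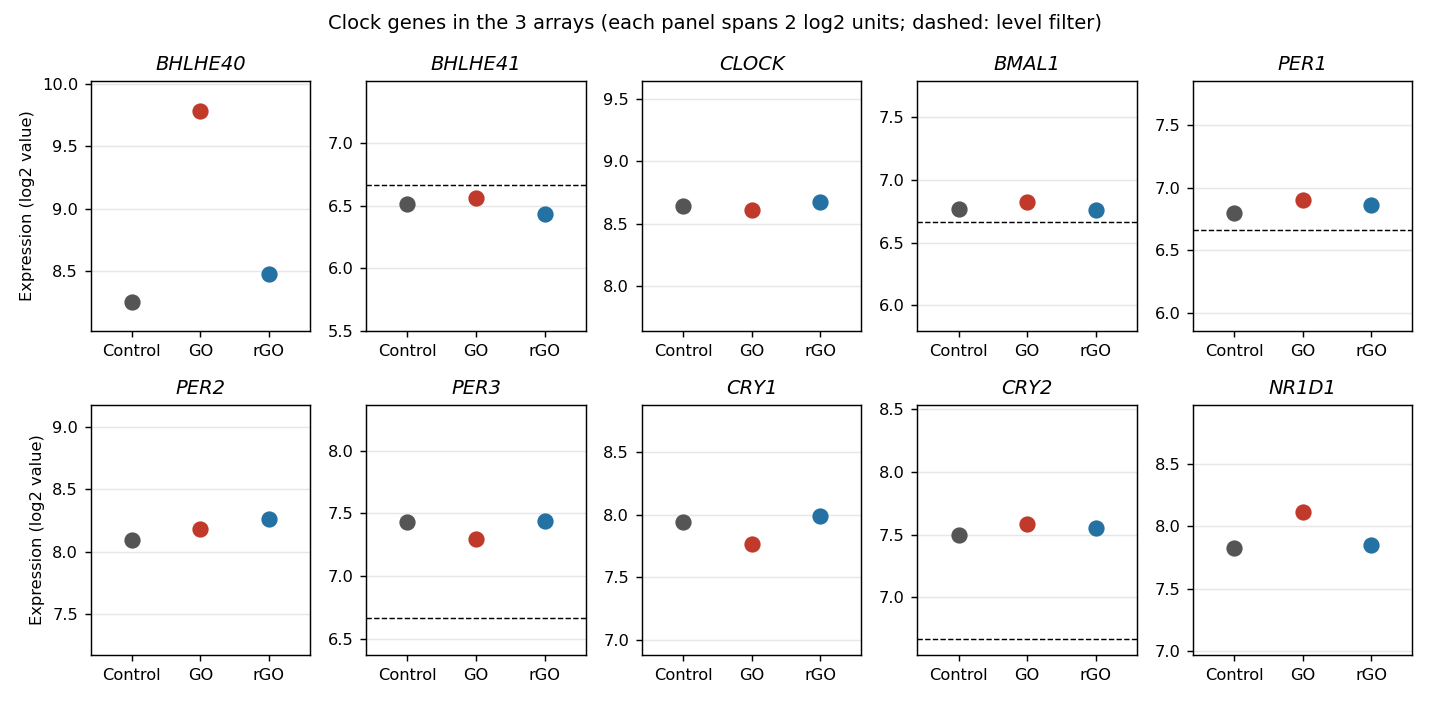
Log2 expression value (y axis) of each clock gene in the control, GO and rGO arrays (x axis), 1 point per array; every panel spans 2 log2 units around its own centre, and a dashed line marks the filter level of 6.66 where it falls in the panel. BHLHE40 stands at 9.79 in the GO array against 8.26 and 8.48 in the others, while the remaining genes lie nearly level.

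CLOCK (probe set 8100428), the partner of BMAL1 with acetyltransferase activity, stood at 8.64 without treatment, 8.61 with GO and 8.68 with rGO. Its values spanned 0.070 log2, and 86.1% of all genes lay at least as far from 0 in GO minus control. BMAL1 (probe set 7938563), the partner of CLOCK and the target of NR1D1, stood at 6.77, 6.82 and 6.76 in the same order. BMAL1 lay just over the filter level in all 3 arrays and spanned 0.065 log2. Its difference of -0.0076 after rGO turned to 0.0082 after a loess scaling, so it has no settled direction there.

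Among the PER genes, whose proteins carry CRY into the nucleus, PER1 (probe set 8012349) stood at 6.80 without treatment, 6.91 with GO and 6.87 with rGO. PER2 (probe set 8059996) stood at 8.09, 8.18 and 8.26. PER3 (probe set 7897378) stood at 7.43, 7.30 and 7.44. PER1 and PER2 were thus lowest in the control, while PER3 was lowest in the GO array. The log2 differences after GO were 0.10 for PER1, 0.087 for PER2 and -0.13 for PER3. After rGO they were 0.065, 0.17 and 0.011, and that of PER3 turned to -0.0028 after quantile normalization and -0.0032 after median centring. PER2 was the one PER gene beyond the robust SD of all genes after rGO, by 1.45 times, with 93.2% of genes lower.

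CRY1 (probe set 7966052), which encodes the strong late repressor of the CLOCK and BMAL1 pair, stood at 7.94 without treatment, 7.77 with GO and 7.99 with rGO. CRY2 (probe set 7939595), its paralogue, stood at 7.49, 7.58 and 7.55. CRY1 was lowest with GO and CRY2 highest with GO, with log2 differences from control of -0.17 and 0.086. After rGO the differences were 0.048 and 0.056. For CRY1 the GO and rGO arrays lay 0.22 log2 apart, 1.02 times the robust SD of that comparison.

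NR1D1 (probe set 8014956), the REV-ERB receptor that links the clock to haem and metabolism, stood at 7.83 without treatment, 8.12 with GO and 7.85 with rGO. The GO value was the highest and the other two lay 0.025 log2 apart. The log2 difference of 0.29 after GO was 1.18 times the robust SD of all genes, and 27.0% of all genes lay at least as far from 0. Unlike that of BHLHE40, it was therefore of a size common among all genes.

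**Figure D3:**
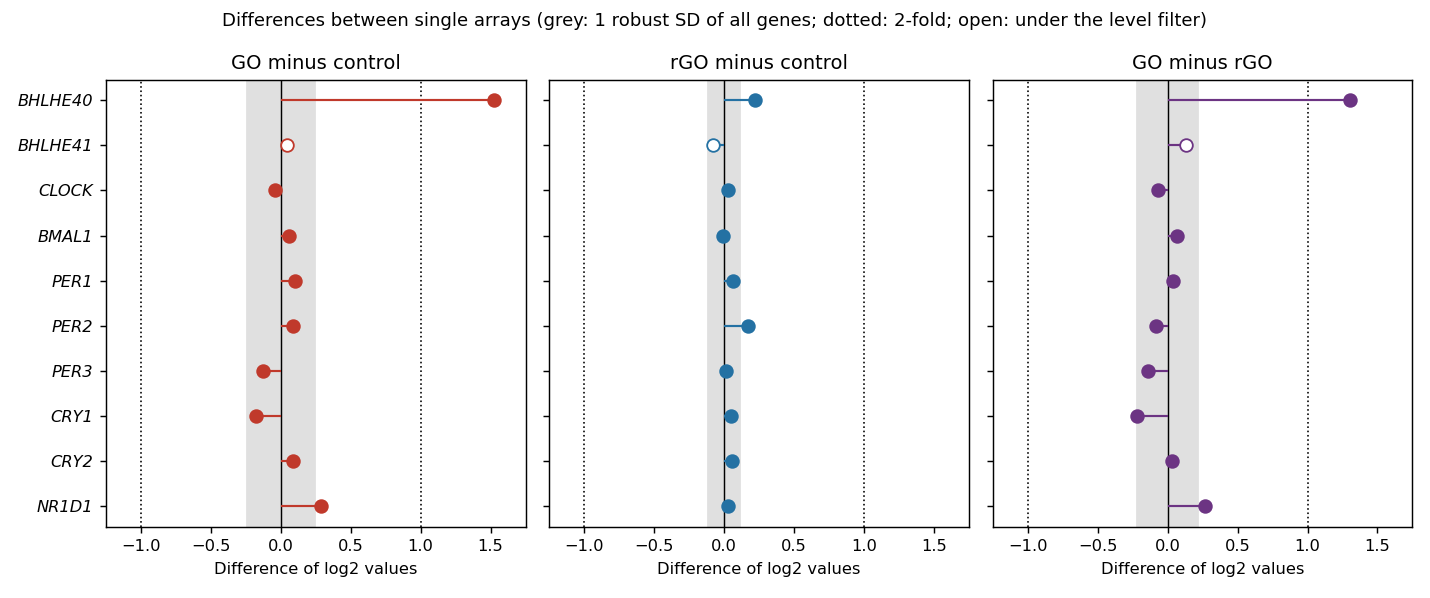
Log2 difference (x axis) of each clock gene (y axis) in 3 panels, GO minus control, rGO minus control and, on the right, GO minus rGO, 1 value per gene from 2 arrays; grey bands mark 1 robust SD of all genes, dotted lines 2-fold, and the open symbol BHLHE41, under the level filter. Apart from BHLHE40 at 1.53 and 1.30, no gene comes near 2-fold, and NR1D1 at 0.29 is the next highest after GO.

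By a fixed size of 2-fold, 1 of the 9 clock genes past the filter was called in GO minus control, BHLHE40, beside 1.17% of all genes past the filter in either direction. In rGO minus control 0 of the 9 were called, beside 0.0181% of all genes, and in GO minus rGO 1 was called, again BHLHE40, beside 0.796%. Most of all genes called at 2-fold were lower: 28 were higher and 101 lower in GO minus control, and 29 and 59 in GO minus rGO. At 1.5-fold the counts of clock genes were the same, 1, 0 and 1, beside 6.14%, 0.154% and 5.02% of all genes. Nothing is read from the call of BHLHE40, for which the group was put together.

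The other 8 genes past the filter lay between -0.17 and 0.29 after GO, with a median log2 difference of 0.072, beside a median of 0.0061 over all genes. Of these 8, 7 lay within 1 robust SD of 0, as did 65.7% of all genes. Their median distance from 0 was 0.095, against 0.17 over all genes. After rGO the 8 lay between -0.0076 and 0.17, with a median of 0.039 beside -0.0084 over all genes, and again 7 lay within 1 robust SD, beside 67.0% of all genes. With BHLHE40 included, 8 of 9 were above 0 after rGO, beside 46.8% of all genes, and 6 of 9 after GO, beside 51.1%. Both comparisons share the control array, which was the highest of the 3 for 0 of the 9 genes and for 33.4% of all genes. With BMAL1 and PER3 changing sign between scalings, the count above 0 after rGO ran from 7 to 9.

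**Figure D4:**
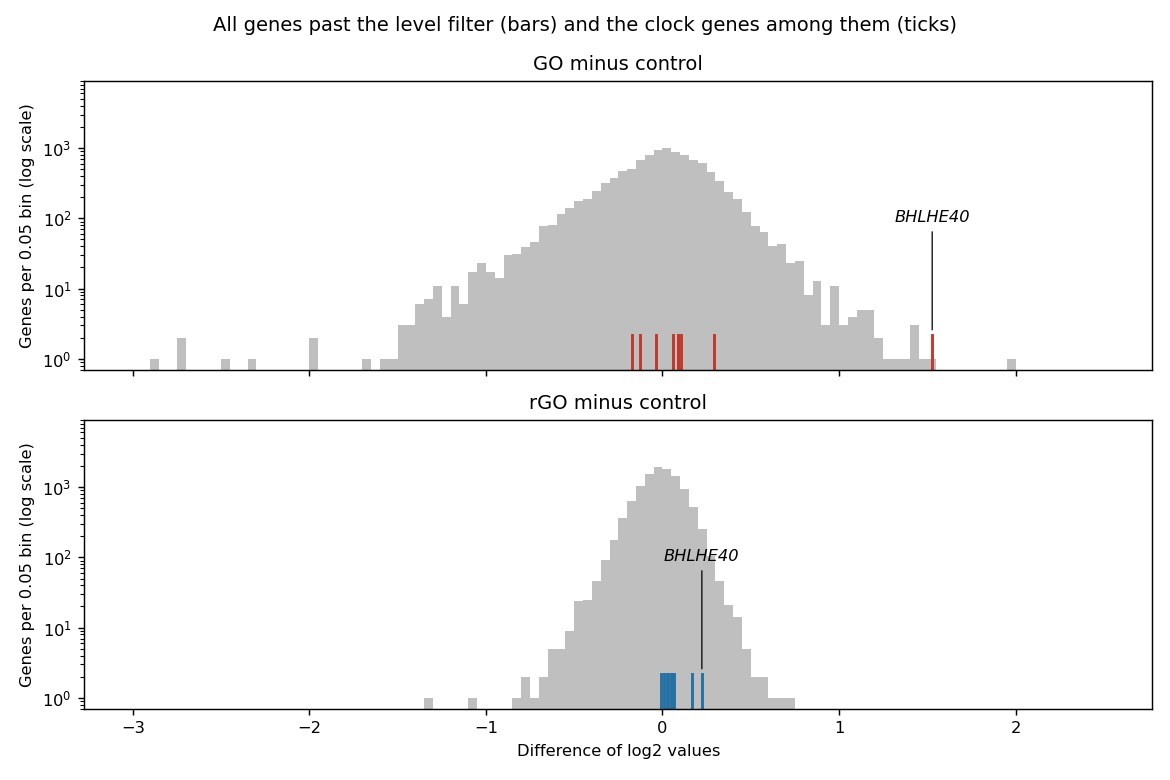
Number of genes per bin of 0.05 (y axis, log scale) by log2 difference (x axis) for the 11050 genes past the level filter, in GO minus control (upper panel) and rGO minus control (lower panel); ticks mark the 9 clock genes among them. After GO the tick of BHLHE40 at 1.53 lies at the upper end of all genes, and the other ticks lie between -0.17 and 0.29.

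The genes whose pattern came closest to that of BHLHE40 over the 3 arrays were found by the distance between their pairs of differences, GO minus control and rGO minus control, among the 11050 genes. The 5 nearest were AGR2, which helps proteins fold in the endoplasmic reticulum, at a distance of 0.091, CHST15, a chondroitin sulphotransferase, at 0.14, TMC7, a transmembrane channel-like protein, at 0.21, CEMIP, which takes part in hyaluronan breakdown, at 0.23, and the mannosyltransferase PIGZ at 0.25. Their log2 differences after GO ran from 1.28 for PIGZ to 1.46 for TMC7, and after rGO from 0.024 for TMC7 to 0.27 for PIGZ. None is a clock gene by the lists used here. Likeness over 3 arrays rests on 2 numbers per gene.

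The wider clock and genes set beside it were described by 11 lists, which held 102 genes with the 10 above. The lists of oxygen sensing genes and of HES and HEY repressors are not clock lists, but the counts here include them. Of the 92 others, 82 had a probe set of their own and 69 passed the filter. In GO minus control 44 of the 69 were above 0 and 25 below, with a median of 0.079, and 0 reached 1.5-fold in either direction, beside 6.14% of all genes; the largest size was 0.54. In rGO minus control 40 were above 0 and 29 below, with a median of 0.017, and 0 reached 1.5-fold, beside 0.154% of all genes. Over all genes past the filter 51.1% were above 0 after GO and 46.8% after rGO, with medians of 0.0061 and -0.0084. The counts above 0 and medians of each list below are to be read beside these values.

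The activators CLOCK and BMAL1 each have a stand-in. NPAS2, the paralogue of CLOCK, stood at 10.47 without treatment, 10.56 with GO and 10.53 with rGO. BMAL2, the paralogue of BMAL1, stood at 8.81, 8.35 and 8.72, so it was lowest in the GO array, with a log2 difference of -0.46. That was larger than the difference of any of the 8 clock genes other than BHLHE40. The repressor CIART, which also acts on CLOCK and BMAL1, lay under the filter level with values of 4.77, 4.74 and 4.83.

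In the loop around NR1D1, its paralogue NR1D2 stood at 8.19 without treatment, 8.23 with GO and 8.14 with rGO. RORA, which activates BMAL1, stood at 8.10, 8.29 and 8.12. NR1D1, NR1D2 and RORA were all highest with GO, with log2 differences of 0.29, 0.047 and 0.19. RORB lay under the filter level with 5.32, 5.22 and 5.26. After rGO the differences of NR1D1, NR1D2 and RORA were 0.025, -0.047 and 0.015.

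The D-box factors are transcription factors that carry the rhythm to output genes and act on PER genes. The repressor NFIL3 stood at 9.40 without treatment, 9.03 with GO and 9.24 with rGO, with log2 differences of -0.37 and -0.17. The activators DBP, TEF and HLF had log2 differences after GO of 0.12, 0.022 and -0.12, and after rGO of 0.11, 0.017 and 0.026. NFIL3 was thus the one D-box factor beyond the robust SD of all genes, in both comparisons.

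Of 17 kinases, phosphatases and ubiquitin enzymes that act on clock proteins, 12 were above 0 after GO with a median log2 difference of 0.13. PRKAA2, a catalytic subunit of the AMP-activated kinase that marks CRY1 for degradation, stood at 9.45 without treatment, 9.996 with GO and 9.44 with rGO, a GO difference of 0.54. The phosphatase subunits PPP1CC and PPP1CA had GO differences of -0.38 and 0.37. CSNK1D, the casein kinase that phosphorylates PER, had one of 0.33. Of 14 cofactors 8 were above 0, with a median of 0.042, led by the histone methyltransferase KMT2A at 0.32 and the acetyltransferases EP300 at 0.31 and CREBBP at 0.30. Of 7 genes of resetting signals 5 were above 0, with a median of 0.10. The glucocorticoid receptor NR3C1 stood at -0.26, the heat shock factor HSF1 at 0.24 and the serum response factor SRF at 0.18.

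Of 11 liver genes known to be driven by the clock, 6 were above 0 after GO and 5 below, with a median of 0.041. NAMPT, the enzyme of the NAD salvage loop, stood at 10.59 without treatment, 10.12 with GO and 10.51 with rGO, a GO difference of -0.48. These values come from the brighter of its 2 probe sets, and those of the other are not given here. CYP7A1, the rate-limiting enzyme of bile acid synthesis, had a GO difference of -0.38. G6PC1, the glucose-6-phosphatase of glucose release, stood at 8.66, 9.10 and 8.30, so that it was higher with GO and lower with rGO, by 0.44 and -0.36. Its GO and rGO arrays lay 0.80 log2 apart, the one gene of the 69 past 1.5-fold in that comparison, beside 5.02% of all genes.

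Because BHLHE40 is a target of the hypoxia-inducible factors, the subunits of these factors and their oxygen sensors were set beside it. Of 7 past the filter, 6 were above 0 after GO, with a median of 0.13, and 3 after rGO, with a median of -0.024. The list mixes subunits with genes that restrain them, so these counts do not describe the activity of the factors. Any part of these factors in the difference of BHLHE40 was not tested. HIF1A, the alpha subunit that is controlled mainly as a protein, stood at 11.75, 11.72 and 11.69, with differences of -0.035 after GO and -0.058 after rGO, the first of which turned sign under another scaling. EPAS1, the alpha subunit HIF2, had GO and rGO differences of 0.28 and 0.079. HIF1AN, the asparagine hydroxylase that restrains these factors, stood at 8.12 without treatment, 8.65 with GO and 8.26 with rGO, and the hydroxylase EGLN3 had a GO difference of 0.34. The HES and HEY repressors are a bHLH family related to the DEC pair. Of 5 past the filter 2 were above 0 after GO, with a median of -0.10, and 0 after rGO, with a median of -0.14. HES1 had differences of -0.17 and -0.14, and HES6 of -0.22 and -0.051. HES7 and HEY1, under the filter level, had GO differences of 0.23 and 0.24.

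**Figure D5:**
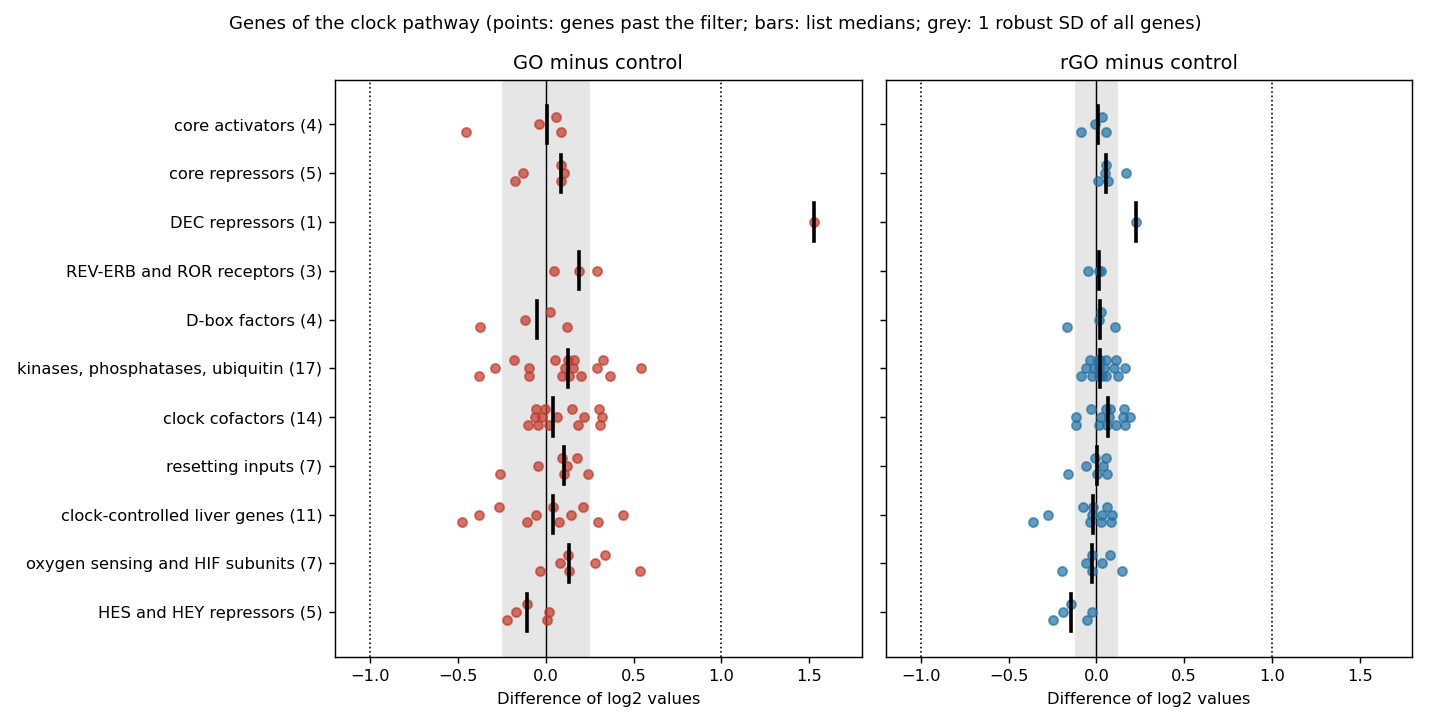
Log2 difference (x axis) of genes past the level filter in each list (y axis, number of genes in brackets), for GO minus control (left) and rGO minus control (right). The lists are those of the clock pathway, of oxygen sensing and of HES and HEY repressors. Points are genes, black bars list medians, grey bands 1 robust SD of all genes and dotted lines 2-fold. BHLHE40, alone in its list, is the one point past 2-fold after GO, and the next largest is PRKAA2 at 0.54.

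The labelled cell type was checked by its markers. All 7 measured hepatocyte markers (ALB, AFP, APOA1, APOB, TTR, SERPINA1 and TF) lay between log2 10.97 and 13.57 in the 3 arrays. After GO 5 of the 7 were above 0, with log2 differences of 0.70 for TTR, the one past 1.5-fold, 0.29 for APOA1 and -0.27 for AFP. After rGO all 7 were above 0, with a median of 0.085. Of 10 leukocyte, stromal and endothelial markers, CD68, COL1A1 and ACTA2 passed the filter, and the other 7, among them PTPRC, CD3E, PECAM1, VWF and KDR, stayed between 3.56 and 6.41, under the filter level in each array. The summed level of these 10 markers was log2 11.01 without treatment, 11.18 with GO and 10.96 with rGO. CD68 and ACTA2, at 9.61 and 9.66 without treatment, were the brightest of the 10 and made up most of this sum. After GO the log2 difference was 0.38 for CD68, -0.44 for KDR and -0.36 for CD14, the last 2 of them under the filter level, and of the 3 markers past the filter 2 were above 0. The part of these markers in the GO differences above was not tested. Array medians were 6.65, 6.63 and 6.66.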

How the data were processed

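The authors' deposited table held log2 expression values for 33297 probe sets on 3 arrays. Per the submitters' processing notes, RMA and MAS5 had a part, in roles and versions not given. Near-equal distributions look normalised between arrays; any further scaling is unknown, and the genome build is not given in the sources used here. Probe sets were named through the platform annotation, which can be old: 19460 had 1 symbol, 1754 several and 12083 none listed. Only those with 1 symbol were used, and the brightest stood for each of 769 genes with more than 1. Among the listed genes named in the text, NAMPT, KMT2A, APOA1 and PECAM1 had 2 each.

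Differences of log2 values between 2 arrays were counted at 2-fold, with no test. The members, lists and motifs were chosen with earlier results of these data known. Text names all members, the 3 genes of each list with the largest size of GO difference, a fixed set of clock and HIF factors, and 5 genes nearest to BHLHE40 in pattern. CSNK1D, HES1 and the neighbours of BHLHE40 were picked after their values were seen. Alternatives were quantile normalization, median centring, loess (span 0.3), no filter, a 60th percentile filter, averaged probe sets, and 1.5-fold and 3-fold sizes. The code for calling was run on simulated data with less spread than GO minus control, which checks the code and not the calls made here. Python 3.11.15, numpy 2.4.6, pandas 2.3.3, statsmodels 0.14.6 and matplotlib 3.10.9 were used.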

Additional observations from a re-analysis of the deposited data

How the results depend on the processing

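The 1 clock gene past 2-fold in GO minus control and in GO minus rGO was 1 under all alternatives but the 3-fold size, where the count was 0 in both; a higher threshold gives this by construction, with BHLHE40 at 2.88-fold and 2.47-fold. In rGO minus control it was 0 throughout. The 60th percentile filter left 5 of the clock genes. Across scalings BHLHE40 stayed between 1.51 and 1.55 after GO and between 0.21 and 0.23 after rGO, and no clock gene moved by more than 0.047. The median of all genes moved by at most 0.038. Counts over all genes that moved by over 1.5 times were 678 at 1.5-fold and 9 at 3-fold against 129 after GO, 555 and 8 against 88 in GO minus rGO, and, after rGO, 17 at 1.5-fold, 0 at 3-fold, 4 without a filter and 1 with the 60th percentile filter against 2. No paired analysis was possible because each group held 1 array, and no array could be left out. Differences under the filter level may be understated by background.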

Other observations

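The genes next to BHLHE40 on chromosome 3 were looked at after its value had been seen. Among genes past the level filter in RefSeq order, the nearest 2 on one side were ITPR1, a calcium channel of the endoplasmic reticulum, and SETMAR, a histone methyltransferase fused to a transposase, with log2 differences after GO of -0.092 and -0.36. The nearest 2 on the other side were EDEM1, which takes part in the degradation of misfolded glycoproteins, at 0.53, and LMCD1, a LIM domain protein, at 0.59. After rGO these 4 lay between -0.083 and 0.12. After GO, EDEM1, LMCD1 and SETMAR lay beyond the robust SD of all genes, 0.24, and ITPR1 lay within it. Distances along the chromosome are not given here, and no regional pattern is read from these genes. Over all 10 clock genes, 2 of 40 such neighbours were past 1.5-fold after GO, LMCD1 and ABTB3, a neighbour of CRY1 at 0.59, which is 5.0% beside 6.14% of all genes.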
